A study of Caenorhabditis elegans with 6 samples.

Results

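The regions described here are the NHR-25::GFP binding sites of Caenorhabditis elegans L2 larvae that every ChIP-seq replicate placed among its first 1000 peaks. They were taken from the peak list of replicate 1, where a peak had to be numbered 1000 or lower, lie on chromosomes I to V or X, and overlap by at least 1 bp a peak numbered 1000 or lower in replicate 2 and another in replicate 3. Of the 997 replicate 1 peaks within that number on these chromosomes, 652 met the rule (65.4%) and are called shared sites, while the 345 that did not are called other leading peaks. Among all 29985 peaks of replicate 1 on these chromosomes, 3.02% overlapped a first-1000 peak in both other lists. The sites were chosen by the measured peak number and overlap, so both are given below as descriptions, with no test. The combined peak list of the series held 6029 peaks.

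The series has 6 samples, 3 ChIP replicates and 3 input replicates of the extracted chromatin, and the peak lists of the ChIP replicates and their combined list were used here. All samples came from hermaphrodite L2 larvae of strain OP33, grown at 20 °C and crosslinked with 2% formaldehyde, with the allele unc119(ed3) and the transgene wgIs33, which holds nhr-25::TY1 EGFP FLAG and an unc119 rescue copy. The transgene was brought into unc-119(ed3) worms by bombardment, the strain was not outcrossed per the labels, and the chromatin came from whole animals, so binding in different cell types is mixed. The labels do not say whether replicates were separate cultures, and a spread between them may be technical. Each list carries a value per peak that stops at a ceiling and was read here, from the values, as a −log10 false discovery rate. The ceiling was shared by 14.2% of the replicate 1 peaks, 9.1% of the replicate 2 peaks and 13.8% of the replicate 3 peaks. All 1000 first peaks of each list lay at the ceiling. That value therefore does not order the sites, and the authors' peak number was used. What orders the numbers at the ceiling is not given in the sources used here, and the lists hold no read counts.

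NHR-25 is the worm receptor of the NR5 family, a group of orphan nuclear receptors that bind DNA as monomers at an extended half-site. It is known in the worm for roles in epidermal cells, in the molting cycle and in the development of the gonad and vulva. ChIP-seq peaks mark where the tagged protein was crosslinked to chromatin. A peak number is a place in a list and not an amount of binding.

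Every peak at the head of the replicate 1 list was shared, and the share fell steadily towards number 1000. All 100 of the first 100 peaks were shared sites (exact Clopper-Pearson 95% interval 96.4 to 100%), and so were all 99 nuclear peaks numbered 101 to 200. The first replicate 1 peak to miss was number 225. Of the peaks numbered 201 to 300, 95 of 100 were shared, and the share was 75.8% at 301 to 400, 58.0% at 501 to 600 and 26 of 100 at 901 to 1000 (17.7 to 35.7%). These intervals cover counting error only. The limit of 1000 in every list makes a fall towards that number likely, so the fall is a description only. In this last group, 41 peaks overlapped a first-1000 peak in neither other replicate, 13 in replicate 2 only and 20 in replicate 3 only.

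**Figure D1:**
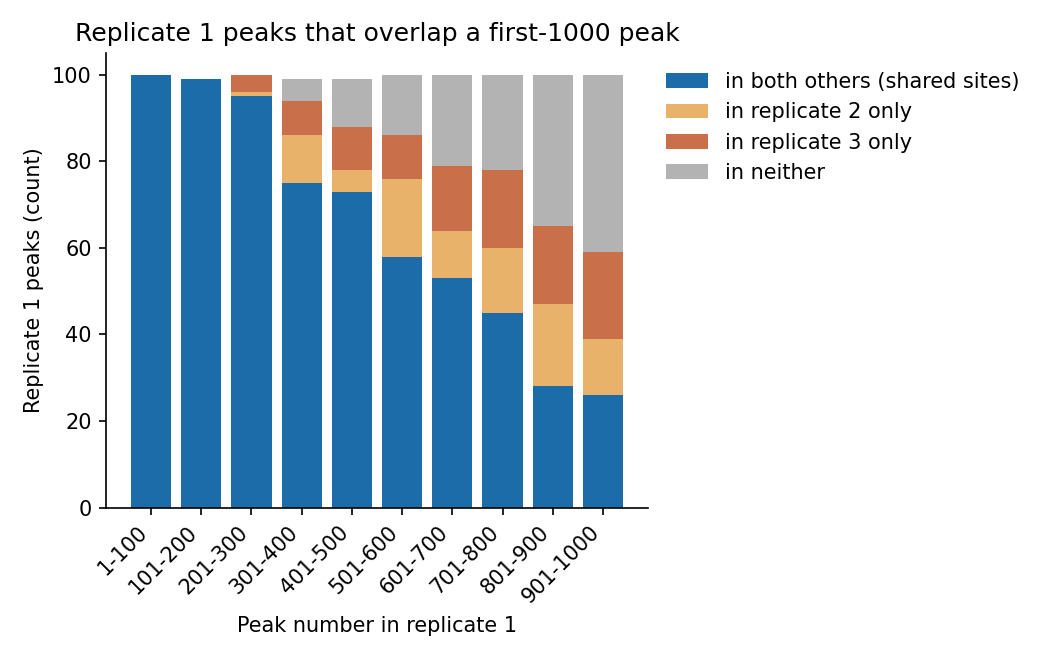
Replicate 1 peaks on chromosomes I to V and X in groups of 100 by their number (horizontal axis), with the count that overlapped a first-1000 peak in both other replicates, in 1 of them or in neither (vertical axis, stacked). The lowest section of each bar, the shared sites, fills the bars up to number 200 and falls to 26 of 100 in the last bar.

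The share of replicate 1 peaks kept in all lists, 65.4% at the limit of 1000, was also computed at stricter limits. With the limit at 100 in every list, 68 of 100 peaks were kept. With 200, 63.8% were kept, with 500, 63.8%, and with 750, 66.3%. At the very head, 6 of the first 10 and 30 of the first 50 replicate 1 peaks stayed within the same limit in every list.

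The 5 shared sites with the lowest sum of their 3 numbers lay on chromosomes II, III and IV. The site on chromosome III from 3867359 to 3867744 (coordinates of the replicate 1 interval, WormBase WS220) was number 1, 1 and 2 in replicates 1, 2 and 3. The site on chromosome IV from 4749890 to 4750232 was number 3, 4 and 1, and that on chromosome II from 10563358 to 10563680 was number 2, 3 and 4. No replicate gave any of these 3 sites a number above 4. The remaining sites were on chromosome III, from 7854449 to 7854798 (numbers 4, 5 and 3) and from 10758962 to 10759351 (numbers 5, 2 and 5). On the chromosomes without a site among these 5, the leading shared site of I, from 9625906 to 9626214, was number 6, 13 and 18. The leading site of X, from 9465575 to 9465985, was number 11, 10 and 13. The leading site of V, from 13081154 to 13081664, came later, at 27, 18 and 27. The gene at any of these sites was not analysed here, because the gene table used here is of another genome build.

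The peaks nearest the limit on either side were picked by their highest number, so their closeness in it follows from that choice. The shared site nearest to the limit, on chromosome III from 10844923 to 10845030, was number 999, 629 and 966. The next, on chromosome II from 11097424 to 11097551, was number 627, 739 and 996. Just past the limit, the peak on chromosome IV from 13919328 to 13919467 was number 586, 1002 and 828, and the peak on chromosome I from 6780029 to 6780458 was number 776, 630 and 1002. The 5 sites just inside had a highest number of 987 to 999 and the 5 peaks just outside one of 1002 to 1014.

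The replicates gave the shared sites places of similar median. The median number was 342.5 in replicate 1, 334.5 in replicate 2 and 332.5 in replicate 3. The lowest of a site's 3 numbers belonged to replicate 1 alone at 219 sites, to replicate 2 alone at 216 and to replicate 3 alone at 212, and at 5 sites it was tied. The highest number of a site was a median of 1.93 times its lowest (quartiles 1.48 and 2.62). At 345 sites (52.9%) the ratio was under 2, and at 25 sites (3.83%) it was over 5. Between pairs of replicates the median ratio was 1.49 for 1 against 2, 1.49 for 1 against 3 and 1.45 for 2 against 3 (mean 1.47 ± 0.0214, SD over the 3 pairs, which are not independent). Spearman's rho of the numbers across the 652 sites was 0.688, 0.691 and 0.728 for these pairs. The sites share their libraries and were limited to the first 1000 numbers of every list. The same limit in each list makes similar medians likely. The medians, the split of lowest numbers and rho are therefore descriptions only.

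**Figure D2:**
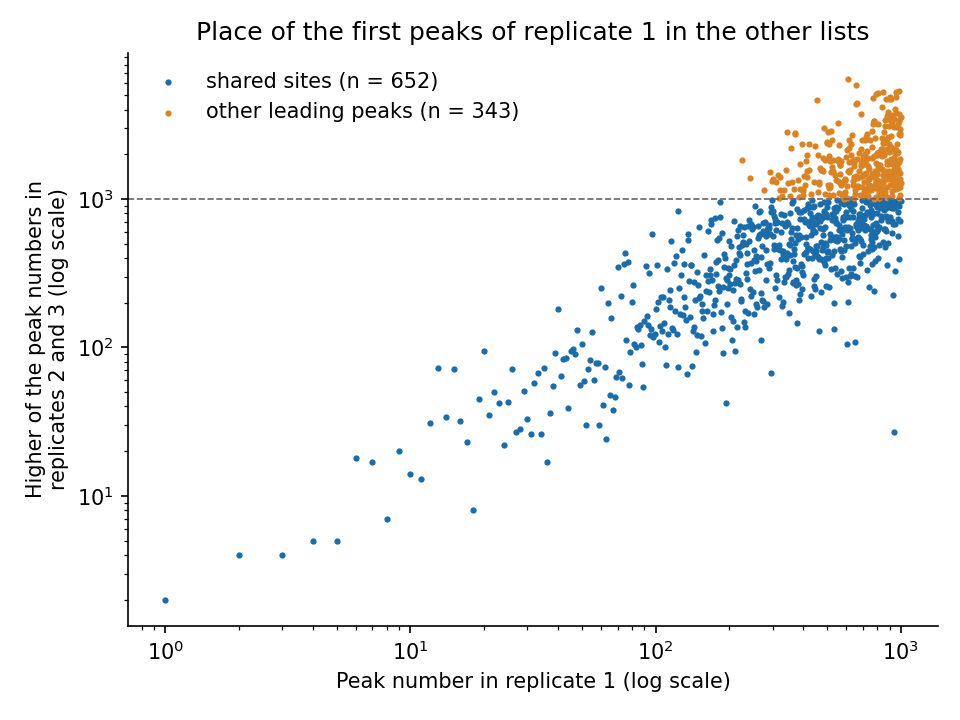
Peak number in replicate 1 (horizontal axis, log scale) against the higher of the peak numbers in replicates 2 and 3 (vertical axis, log scale), with 1 point per replicate 1 peak and the limit of 1000 as a dashed line. The 652 shared sites lie below the line and 343 of the other leading peaks above it; the point far below the rest near number 1000 is the second peak called at the leading site of chromosome V.

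The 3 largest ratios of highest to lowest number came from sites where replicate 1 held 2 overlapping peaks. The largest ratio, 52.1, belonged to the peak on chromosome V from 13081154 to 13081664 that was number 937 in replicate 1 and overlapped numbers 18 and 27 in replicates 2 and 3. The same interval is listed again in replicate 1 as number 27, the leading site of V. The peaks on II from 5844600 to 5845136 (numbers 297, 67 and 11; ratio 27.0) and on I from 4172018 to 4172432 (numbers 193, 42 and 16; ratio 12.1) likewise overlapped replicate 1 peaks numbered 33 and 23. When overlapping shared sites were joined they formed 638 regions, of which 14 held 2 shared sites. In 8 of the 14 the interval was listed identically for both. In 2 of them, those on I and II just named, both other replicates also had 2 first-1000 peaks.

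With the best number of each region, the largest ratio was 10.2 and 18 regions were over 5. That ratio belonged to a site on X from 11031189 to 11031452, which was number 124 in replicate 1, 830 in replicate 2 and 81 in replicate 3. A site on V from 6227567 to 6227875 was number 778, 239 and 78, so that here replicate 1 was the one that placed it last. Sites on X from 16929511 to 16929883 (numbers 68, 46 and 9) and from 15841054 to 15841335 (numbers 42, 11 and 83) differed 7.56-fold and 7.55-fold in number while staying within the first 100 of every list.

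The other leading peaks were also looked up in the full lists of the other replicates. All 345 overlapped a peak of replicate 2, where 56.6% of all replicate 1 peaks on these chromosomes did, and 343 overlapped one of replicate 3, where 59.6% of all did. Their median number was 743 in replicate 1, 1253 in replicate 2 and 1277 in replicate 3. The highest of the 3 numbers was at most 1500 for 152 of them, at most 2000 for 239 and at most 3000 for 299. Replicate 2 alone had placed 93 within its first 1000, replicate 3 alone 103, and neither had placed 149. The peaks without a replicate 3 peak lay on X from 11522009 to 11522438 (numbers 870 and 1337 in replicates 1 and 2) and on IV from 7319930 to 7320359 (numbers 893 and 1351). They were named after their values were seen.

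The other leading peaks with the lowest replicate 1 numbers show how far apart the lists could place a site. The peak on IV from 8036588 to 8036762 was number 225, 1820 and 410 in replicates 1, 2 and 3. The peak on II from 156018 to 156225 was number 243, 1380 and 459. On V, the peak from 11147022 to 11147237 was number 299 and 329 in replicates 1 and 2 and 1325 in replicate 3. Replicate 2 was the list that left out 4 of the 5 lowest-numbered ones, and replicate 3 left out the peak on V. Replicate 1 missed sites in the same way. Replicates 2 and 3 shared 742 of their first 1000 (counted from replicate 2), of which 92 were not in the first 1000 of replicate 1. All 92 had a peak further down its list, with a median number of 1349.5, and 76 of them were within the first 2000.

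Most shared sites were called as intervals narrower than the standard one, and the share of peaks with standard width rose with the peak number. Most peaks of a list had 1 standard width, 430 bp in replicates 1 and 2 and 450 bp in replicate 3. In replicates 1, 2 and 3, 20.7, 24.5 and 27.9% of the shared sites had this width (mean 24.4 ± 3.61%, SD, n = 3). Of the other leading peaks 68.4, 87.5 and 87.2% had it (mean 81.0 ± 10.9%, SD, n = 3; 343 peaks in replicate 3), and of the whole lists 97.4, 97.7 and 97.7%. Intervals narrower than the standard made up 71.5 ± 3.02% of the shared sites, 18.0 ± 11.0% of the other leading peaks and 2.12 ± 0.198% of the whole lists (SD, n = 3). The rule placed the other leading peaks early in replicate 1 only (median numbers 743, 1253 and 1277). Their SD therefore also holds this difference between lists and is not a plain replicate spread. The median width of the shared sites was 254.5, 259 and 270 bp in replicates 1, 2 and 3. The width belongs to the same peak calls as the number, so no test was made.

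**Figure D3:**
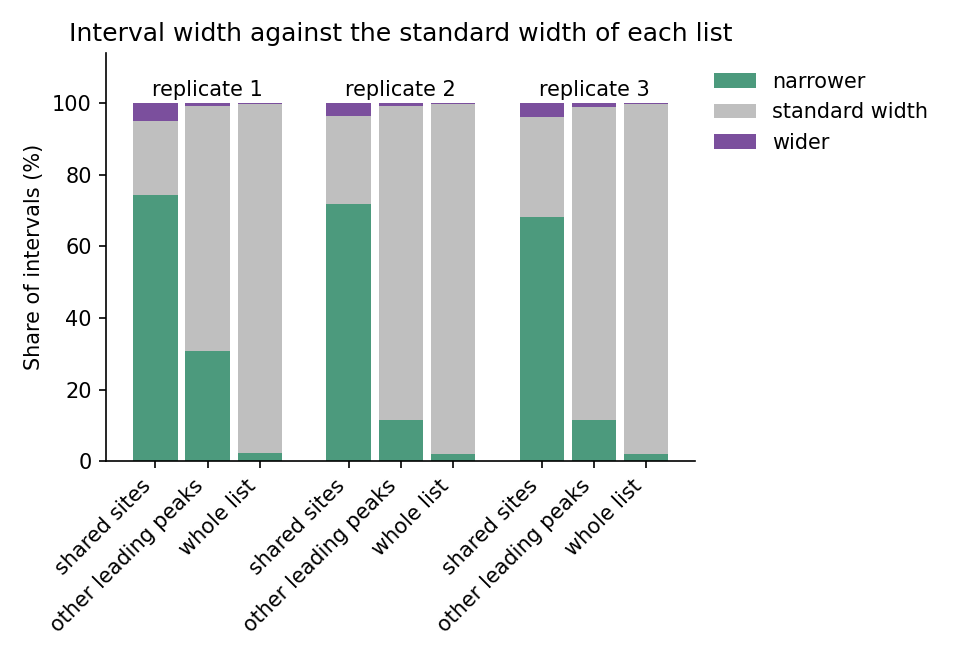
Share of intervals that were narrower than, equal to or wider than the standard width of each replicate's list (vertical axis, percent) for the shared sites, the other leading peaks and the whole list, by replicate. In every replicate narrower intervals make up over 68% of the shared sites and under 31% of the other leading peaks.

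The widths were also compared within 1 range of replicate 1 numbers. Of the shared sites numbered 501 to 1000 in replicate 1, 47.6% (100 of 210) were narrower than the standard there, against 25.5% of the other leading peaks in that range (74 of 290). For the same sites the shares were 51.4% against 9.66% in replicate 2 and 48.1% against 10.8% in replicate 3. The numbers that the other leading peaks had in those lists were higher, as the rule requires. Within this range the shared sites also lay earlier in replicate 1. They made up 58 of 100 peaks at 501 to 600 and 26 of 100 at 901 to 1000, so number was not held equal. At 351 shared sites (53.8%) the interval was narrower than the standard in every list, and at 18 sites it was wider in every list. Another 68 sites (10.4%) had the standard width in all of them. Their mean number over the replicates had a median of 688.8, against 224.8 for the 388 sites that had an interval of their own in all lists.

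Widths of 1 site were alike between replicates at some sites and not at others. Spearman's rho of the width across shared sites was 0.358 between replicates 1 and 2 and 0.323 between 1 and 3, and between 2 and 3 it reached 0.370. The leading site of III was 386, 372 and 361 bp wide, and the leading site of V 511, 519 and 615 bp. The widest shared interval of replicate 1, on II from 8747151 to 8747940, spanned 790, 700 and 518 bp and was listed in replicate 1 under the numbers 140 and 879. The site on X from 3788367 to 3788994 was 628 bp in replicate 1 but 229 and 221 bp in replicates 2 and 3. The narrowest shared sites of replicate 1 had 108 bp, the shortest width in that list, and 4 of these 8, such as the site on IV from 10978829 to 10978936, had the standard width in both other lists. All shared regions together covered 181 kb.

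The replicates placed the middle of a shared site close together. The mean distance between the 3 midpoints of a site had a median of 21.0 bp (quartiles 11.6 and 36.0 bp). It was under 50 bp at 565 sites (86.7%) and over 100 bp at 14. The median was 15.8 bp at the 388 sites with an interval of their own in every list and 34.7 bp at the 68 sites of standard width in every list. The leading site of II had a mean distance of 1.67 bp and that of I 1.33 bp. The largest, 189 bp, was found on II from 12944882 to 12945042, where the replicate 1 interval was 161 bp wide and the others had the standard width. The overlap that defines the sites limits these distances.

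Chromosome and position were not used by the rule beyond leaving out the mitochondrial genome, and these could be tested. The shared sites numbered 103 on I, 103 on II, 115 on III, 90 on IV, 90 on V and 151 on X. Per Mb of chromosome, X held 8.52 and III 8.34 shared sites, followed by I with 6.84, II with 6.74, IV with 5.15 and V with 4.30. All first-1000 peaks of replicate 1 numbered 147 on I, 170 on II, 162 on III, 146 on IV, 145 on V and 227 on X. The densities by themselves therefore do not set the shared sites apart from all leading peaks. Of all first-1000 peaks of replicate 1, the share that was shared by every list ranged from 60.6% on II (exact interval 52.8 to 68.0%) to 71.0% on III (63.3 to 77.8%), and it was 66.5% on X (60.0 to 72.6%). The 6 chromosomes did not differ past the threshold of 0.05 (logistic regression across the 997 peaks with the log2 replicate 1 number as covariate, likelihood-ratio chi-square 3.97, p = 0.554, Benjamini-Hochberg adjusted p = 0.625 over 4 location tests).

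**Figure D4:**
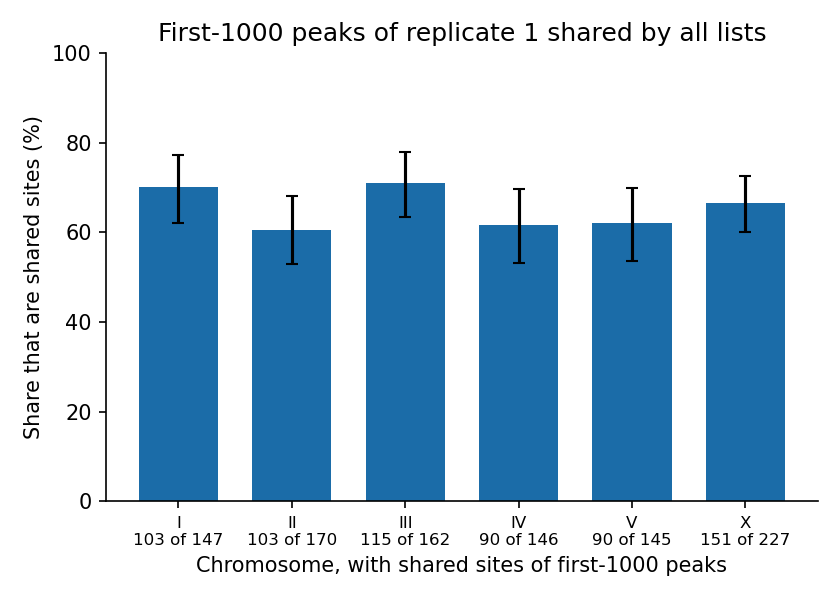
Share of the replicate 1 peaks numbered 1000 or lower that were shared sites (vertical axis, percent) on each chromosome (horizontal axis, with counts), with exact 95% intervals as error bars. The shares lie between 60.6% and 71.0% and every pair of neighbouring intervals overlaps.

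X held 23.2% of the shared sites (151 of 652, exact interval 20.0 to 26.6%) and 22.0% of the other leading peaks (76 of 345, 17.8 to 26.8%). The odds ratio at equal replicate 1 number was 1.10 (95% interval 0.754 to 1.60, n = 997 peaks, p = 0.625, adjusted p = 0.625 in the same logistic regression). Counted from the peaks of replicates 2 and 3, the share of X among the shared sites was 23.7% and 23.6%. In the combined list it was 19.9%. The interval of the odds ratio leaves room for a difference in either direction, and the log odds of 0.09 turned to −0.20 with the limit at 2000 in every list and to −0.16 without replicate 2. All location tests treat peaks as independent observations, and only 1 chromosome is an X.

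Positions along the chromosomes were tested in the same way. Of the autosomal shared sites 63.5% (318 of 501) lay in the central 50% of their chromosome, against 69.1% (186 of 269) of the other leading peaks (odds ratio 0.693, 95% interval 0.475 to 1.01, n = 770 peaks, p = 0.0568, adjusted p = 0.227). On X the shares were 54.3% (82 of 151) against 50.0% (38 of 76; odds ratio 1.75, 0.870 to 3.52, n = 227 peaks, p = 0.117, adjusted p = 0.234). Neither passed the threshold. The direction on the autosomes turned with the limit set at 500 or 2000 in every list and when the sites were counted from replicate 3. On X the log odds of 0.56 turned to −0.10 with the limit at 2000 and to −0.12 without replicate 1, and was 0.07 with a reciprocal overlap of 50%. Without the peak number in the model it was 0.17, so the odds ratio of 1.75 is not that of the plain shares. Chromosome V was the most central, with 69 of its 90 shared sites (76.7%) and 49 of its 55 other leading peaks (89.1%) there.

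The median distance from a shared region to the nearest other one was 31.4 kb, and 74 of 638 regions (11.6%) had another within 2000 bp midpoint to midpoint. The combined list holds 5720 regions against these 638, so distances to it are shorter by its size. To its nearest other region the median was 2.34 kb, and 44.7% of the shared regions had one within 2000 bp. The other leading regions had 44.9% within that distance of another combined region, and all combined regions 42.2%. On X successive shared regions lay a median of 69.5 kb apart and on V 140.8 kb. The longest stretch without a shared site, 1595 kb, ran on V from 16356279 to 17951290, and the next, 1480 kb, on II from 1320772 to 2800782. The longest on X was 660 kb, from 3127974 to 3787561.

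The most crowded stretch of shared sites was on X from 6736505 to 6750467, 14.0 kb with 8 shared regions and no other leading region. They held 9 shared sites. The site from 6743805 to 6744166 was number 39, 92 and 79 in replicates 1, 2 and 3, and the site from 6736505 to 6736752 number 159, 66 and 107. Next to it, the site from 6737423 to 6738047 was number 188, 91 and 61. The replicates did not order the sites alike. Replicate 1 placed the site from 6739090 to 6739358 at number 77, against 373 and 231 in replicates 2 and 3, while replicate 2 placed that from 6750124 to 6750467 at 116, against 364 and 272. Each site had numbers from 39 to 589 in every list. The windows of 30 kb that came next held 5 shared regions each, on I from 7472297 to 7500714 and on III from 1921362 to 1950497. The combined list had 10 regions in the stretch on X, 8 in the window on I and 3 in the window on III. In the one on III, the site from 1925035 to 1925543 was number 17, 15 and 23. Its neighbours from 1921362 to 1921532 and from 1923573 to 1923851 were numbers 205, 70 and 112 and numbers 215, 120 and 137, so that replicate 1 placed both last.

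**Figure D5:**
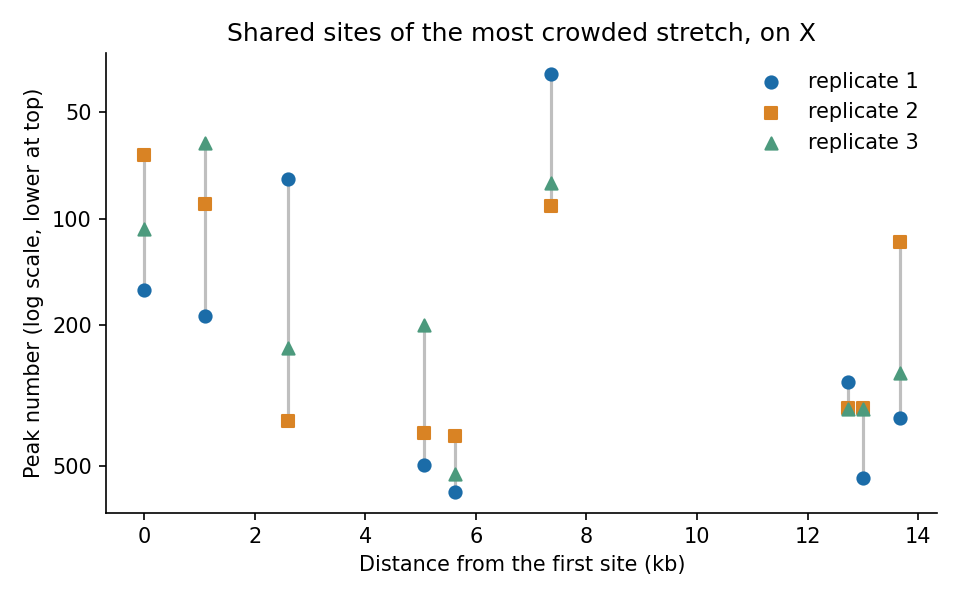
Peak numbers (vertical axis, log scale, lower numbers at the top) of the 9 shared sites in the most crowded stretch on X against their distance from the first site in kb (horizontal axis), with 1 marker per replicate and a line joining the replicates. The numbers run from 39 to 589, and the site near 7 kb is the one that replicate 1 placed highest.

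The combined list held 650 of the 652 shared sites, all within its first 1000 (median number 316.5, highest 989). Of the other leading peaks it held 337, of which 205 were within its first 1000 (median 918, lowest number 328). Since it was made from these same replicates, this is no independent check. The shared sites it lacked lie on X from 12480585 to 12480692 (numbers 797, 603 and 807) and on V from 8500297 to 8500726 (numbers 964, 901 and 891).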

How the data were processed

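Peak lists of 3 ChIP replicates and the combined list were used. Per the file headers, coordinates are on WormBase WS220, and the source field names the caller SPP run through IDR, a procedure on the reproducibility of calls. No aligner, filter, threshold or control library is named in the headers or labels used. The deposited −log10 false discovery rate estimates stop at a ceiling. That unit was read from the values. The deposited peak number was read from each peak's name. Where several peaks overlapped, the lowest number was taken. As chromosome length, the end of the last peak in any list was taken. The central part is the middle 50%. Location was tested by logistic regression (statsmodels 0.14.6) of shared or not on location, with log2 replicate 1 number as covariate, Wald tests (likelihood ratio for chromosome), two-sided, Benjamini-Hochberg over 4 tests. The overlap count was tested on simulated lists of 430 bp peaks without repeated calls. The regression was tested on simulated membership for the X term only. No genome of WS220 was used, so no sequence, motif or gene is given.

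The sites and comparisons were chosen with earlier results of these data known. Named sites follow fixed rules: lowest sum of the 3 numbers, overall and per chromosome; largest ratio; nearest the limit on either side; other leading peaks with the lowest replicate 1 number; sites in no combined peak; 3 windows of 30 kb with most sites; widest intervals. Of the rules with 5 sites, some are given by range or example. Sites named as narrowest, farthest apart in midpoint, largest ratio among single peaks or lacking a replicate 3 peak were chosen after their values were seen. The input samples were not analysed here.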

Additional observations from a re-analysis of the deposited data

Results flagged for a closer look

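Peaks on the mitochondrial genome, which the rule leaves out, also lay among the first 1000 of each list. Replicates 1, 2 and 3 had 3, 11 and 2 such peaks, numbered 158 to 477, 59 to 906 and 40 to 65. All of them overlapped mitochondrial first-1000 peaks in both other replicates. Intervals among the first 100 of replicates 2 and 3, mitochondrial peaks included, reached 10633 and 13371 bp. The widths of the mitochondrial peaks were not examined separately. Wide or repeated intervals on 1 sequence would overlap in any case, so this overlap is no sign of agreement between replicates. The level of the mitochondrial peaks in input chromatin was not analysed here.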

How the results depend on the processing

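Of 69 alternatives over 8 results, 46 left the result on its side of 0.05 with the same sign, or within the spread used (SD over replicate pairs or replicates; a factor of 1.5 for counts). None of 40 alternatives of the location tests passed the threshold in the logistic regression; the lowest adjusted p was 0.104, and in no location test was there a call to lose. The count of 652 was 317 with the limit at 500 and 1288 at 2000, 63.8% and 64.6% of the replicate 1 peaks in that range. With a reciprocal overlap of 50% it was 446, a share of 44.7% against 65.4%. The factor of 1.5 for counts still takes that as unchanged. With 1 replicate left out the count ranged from 742 to 755, and the share from 74.7 to 75.7%. The log odds on the autosomes for the central part, −0.37, turned to 0.0714 at a limit of 500, 0.0469 at 2000 and 0.0018 counted from replicate 3. For X it turned from 0.09 to −0.20 at 2000 and lay between −0.16 and 0.25 when single replicates were dropped (negative without replicate 2). For the central part of X it turned from 0.56 to −0.10 at 2000 and lay between −0.12 and 0.49 (negative without replicate 1). It was 0.17 without the peak number in the model. The cause was not tested. The ratio of numbers, 1.93, was 1.89 at a limit of 500 and 1.43 to 1.48 with 2 replicates, which have fewer numbers to differ. The midpoint distance, 21.0 bp, was 15.0 at 500, 26.7 at 2000, 18.0 with reciprocal overlap, 20.7 counted from replicate 3 and with 1 peak per joined region, and 19.0 to 19.5 with 1 replicate left out. The share of shared regions with another nearby was 2.98% within 1000 bp and 24.5% within 5000 bp. Joining overlapping peaks was chosen after seeing the data. No paired analysis was possible because the peak lists used here are of ChIP replicates only; the inputs carry the same replicate numbers and were not analysed here. The unknown depth and the ceiling leave the peak number as the only order, and its basis is unknown.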

Other observations

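The width of an interval did not follow the peak number in 1 direction. The first 100 peaks of replicates 1, 2 and 3 had median widths of 323.5, 325 and 319.5 bp. Peaks numbered 101 to 500 were narrower, with medians of 227.5, 223 and 224 bp, and those numbered 501 to 1000 had the standard width as their median. The standard width was carried by 0.333 ± 0.577% of the first 100 peaks, 15.4 ± 2.50% of those numbered 101 to 500, 68.9 ± 4.84% at 501 to 1000 and 95.4 ± 1.54% at 1001 to 2000 (SD, n = 3). These widths were looked at after the data were seen and include the mitochondrial peaks.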
